A study of Drosophila melanogaster with 4 samples.

Results

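The 8 genes described here carry amino acids or short peptides across cell membranes in Drosophila melanogaster. They are mnd, slif, JhI-21, gb and sbm of the SLC7 family, path of the SLC36 family, NAAT1 of the SLC6 family and yin of the SLC15 family. They were taken by a list of names, with no measured value in the rule, and each symbol matched 1 FlyBase identifier, so that they make up 8 of the 17510 genes in the count table. RNA came from adult intestines dissected free of Malpighian tubules and crop. There were 2 libraries of flies with RNAi against CG5789 (Cftr), by a transgenic line held by the National Institute of Genetics, and 2 libraries of wild-type flies. Cftr is studied as the fly counterpart of the human CFTR chloride channel gene. The driver of the RNAi, the sex and age of the flies and any background shared by the groups are not given in the sources used here. The labels name no control for the transgene or driver, whose effects cannot be told apart from that of the RNAi. Libraries are numbered within each genotype in the order of deposit.

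Dietary protein is cut in the gut lumen into free amino acids and short peptides, which enterocytes take up through carriers in the apical membrane. SLC6 nutrient amino acid transporters are driven by sodium, SLC36 and SLC15 carriers by protons, while many SLC7 proteins are exchangers that work as the light chain of a pair with the heavy chain CD98hc and let amino acids in or out on the basolateral side. Several of these proteins also sit upstream of the growth kinase TOR in insects, because amino acids inside the cell and its lysosomes keep that kinase active. Fewer cells expressing a gene and less RNA per cell cannot be told apart in such bulk samples.

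The libraries held between 11294882 and 30537063 counts, and 9637 genes had enough counts to be tested. The leading principal component of log2 CPM (counts scaled to library size, here by TMM), with 52.6% of the variance, separated RNAi 1 and wild type 1 (called set 1) from RNAi 2 and wild type 2 (set 2), and the next, with 34.3%, separated the genotypes. No label names such sets: they were read from the counts. Each comparison below was therefore fitted with genotype alone and again with the set as a further term. With 1 residual degree of freedom and sets taken from the same counts, p-values of the fit with the set term can be too small, and it cannot be repeated without a library. The targeted gene Cftr had 13.8 and 17.5 CPM in the libraries labelled RNAi, against 13.8 and 43.4 CPM in wild type, with nearly the same level in RNAi 1 and wild type 1. Every direction given here is for the libraries as labelled. Midgut markers were present in all libraries. The enterocyte genes nub, Myo31DF and Npc1b together had 533 and 1174 CPM in RNAi, against 324 and 645 CPM in wild type. Of these Npc1b, with 283 and 514 CPM in RNAi, against 90.9 and 145 CPM in wild type, was the 1 that passed with the set term, and Myo31DF had 85.5 and 260 CPM in RNAi, against 86.5 and 227 CPM in wild type. The enteroendocrine genes pros, Tk and NPF together had 83.4 and 95.6 CPM in RNAi, against 138 and 111 CPM in wild type. NPF had 22.4 and 15.7 CPM in RNAi, against 43.0 and 30.1 CPM in wild type, and passed as lower with the set term. The scarcer pros lay slightly higher in RNAi, with 5.10 and 5.26 CPM, against 4.64 and 4.85 CPM in wild type. The progenitor gene Delta had 6.22 and 4.85 CPM in RNAi, against 3.53 and 4.49 CPM in wild type. Its RNAi libraries lay above both wild-type libraries, as in 12.0% of tested genes, and it passed in neither edgeR fit. The progenitor gene esg was not analysed here. Of other tissues, germ line markers were at or near 0. The 4 tubule markers summed to 55.4 and 49.6 CPM in RNAi, against 57.3 and 46.0 CPM in wild type, nearly all of it from the potassium channel gene Irk2, while Uro, CapaR and sim were each at 0.900 CPM or less. Fat body markers summed to 105 and 234 CPM in RNAi, against 106 and 118 CPM in wild type. Nearly all of this came from Yp1, higher in RNAi in each set, and Yp2, lower in set 1 but higher in set 2. Haemocyte markers summed to 5.32 and 3.26 CPM in RNAi, against 0.588 and 0.987 CPM in wild type, mostly from NimC1. Of the fat body and haemocyte markers, Yp1 and NimC1 passed as higher in edgeR with the set term. The part of these markers in the results below was not tested. The labels do not say whether the libraries within a genotype are of separate flies, and p-values measure only the spread among libraries, which can be technical.

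The 8 genes fell into an abundant and a scarce class. Per kb of exon, averaged over the 4 libraries, slif (56.0 CPM per kb) and path (54.8 CPM per kb) led, followed by NAAT1 (36.3), sbm (21.8) and JhI-21 (11.9), with mnd (2.06), gb (1.82) and yin (1.39) far below. Among all tested genes these mean levels lay at percentile 86.5 for slif, 86.2 for path, 81.1 for NAAT1, 73.9 for sbm and 62.6 for JhI-21, and at 29.4 for mnd, 27.5 for gb and 24.0 for yin. The ranges over the 4 libraries overlapped between neighbours in this order, except between sbm and JhI-21, with a 1.84-fold step in the mean level, and between JhI-21 and mnd, with a 5.77-fold step. Neighbours among slif, path, NAAT1 and sbm, and among mnd, gb and yin, thus did not differ beyond their spread. By library, path was the most abundant of the 8 in RNAi 1 and RNAi 2, slif in wild type 1 and NAAT1 in wild type 2. The 4 genes slif, path, NAAT1 and sbm made up 89.0% and 93.2% of the summed level per kb of the 8 in RNAi 1 and 2, against 87.7% and 92.1% in wild type 1 and 2.

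**Figure D1:**
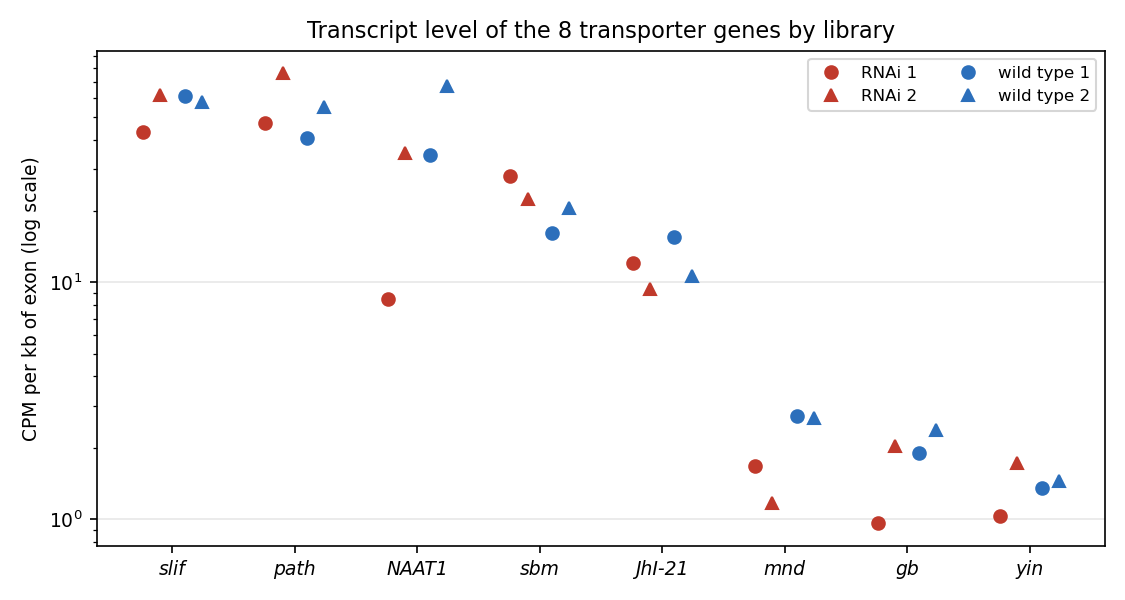
Level of each gene in CPM per kb of exon (log axis) in each library, RNAi in red left of wild type in blue, circles for set 1 and triangles for set 2. The 5 abundant genes sit above the 3 scarce ones in every library, and NAAT1 has the widest spread, between 8.47 CPM per kb in RNAi 1 and 67.3 CPM per kb in wild type 2.

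Between the genotypes, none of the 8 genes passed an adjusted p of 0.05 over all genes in edgeR's quasi-likelihood test with genotype alone, where 0.125% of tested genes passed. At an unadjusted p under 0.05 there was 1 (mnd, lower in RNAi), against 3.83% of tested genes, and DESeq2 and limma-voom called 0 each, where they called 0.955% and 0.114% of tested genes. With the set as a term, 2 of the 8 were lower in RNAi and 0 were higher, NAAT1 and mnd, where 3.65% of tested genes passed as lower and 3.45% as higher. At an unadjusted p under 0.05 that fit had 3 lower (NAAT1, mnd and gb) and 1 higher (sbm), against 17.7% of tested genes in either direction. Of the 8, 1 was called by DESeq2 and 2 by limma-voom under that term, against 4.29% and 7.79% of tested genes. The median log2 fold change of the 8, RNAi over wild type, was -0.24 in each fit, against 0.0065 over all tested genes with genotype alone and 0.0040 with the set term. In 2 of the 8, mnd and sbm, the genotypes did not overlap, as in 24.2% of tested genes.

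**Figure D2:**
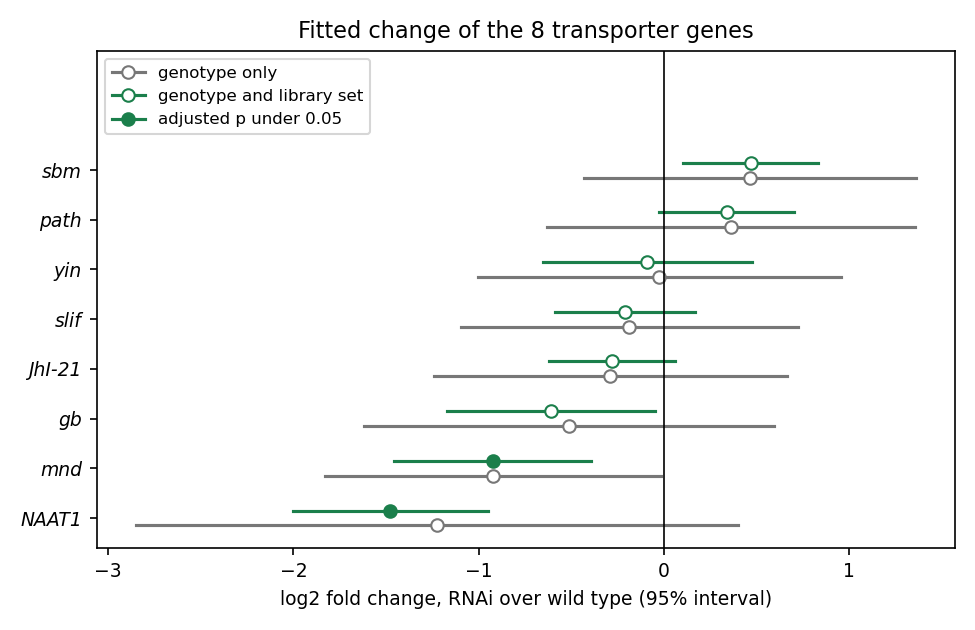
Fitted log2 fold change, RNAi over wild type, with 95% intervals, from the fit with genotype and library set (green) and with genotype alone (grey); filled points passed an adjusted p of 0.05. The grey intervals are the wider ones for each gene, and of the green ones those of NAAT1 (-2.00 to -0.95) and mnd (-1.46 to -0.39) belong to genes that passed.

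NAAT1 encodes a sodium-driven transporter with a broad range of neutral amino acids, described in flies as an apical uptake carrier of the gut that also accepts D-amino acids. It lies on the minus strand of chromosome X at 5405238 to 5410849 (BDGP6) and encodes a protein of 641 residues. It had 21.1 and 87.1 CPM in RNAi 1 and 2, against 85.7 and 167 CPM in wild type 1 and 2, from counts of 657 and 2136 against 2478 and 1864. RNAi 1 was lowest and wild type 2 highest, while RNAi 2 and wild type 1 had nearly the same level, so the genotypes overlapped as groups. Within set 1 the level in RNAi was 0.246 times that in wild type (95% exact interval 0.225 to 0.268), while in set 2 it was 0.521 times (0.489 to 0.554). These intervals, like all such intervals below, cover counting error only.

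NAAT1 also differed between the sets: set 2 over set 1 it was 4.14-fold in RNAi and 1.95-fold in wild type. With genotype alone the log2 fold change of NAAT1 was -1.23 (SE 0.69, edgeR adjusted p = 1.0, 95% interval -2.85 to 0.40). With the set as a term it fell by 1.48 on the log2 scale (SE 0.24, edgeR adjusted p = 0.00227), a level 2.78-fold lower in RNAi. With the set term, NAAT1 passed also in DESeq2 (adjusted p = 1.64e-06) and limma-voom (adjusted p = 0.00445). With genotype alone, leaving out a library put the log2 fold change of NAAT1 between -2.63 without RNAi 2, where it passed (edgeR adjusted p = 0.0458, as 1.12% of genes tested did), and -0.54 without RNAi 1. Without wild type 2 it was -0.63. Its share of the summed level per kb of the 8 genes was 5.94% and 16.7% in RNAi, against 19.8% and 30.9% in wild type.

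The summed muscle markers and 1 of 5 regional gut markers (cad) were ordered across the libraries as NAAT1 was. The summed muscle markers (Mhc, sls, up and bt) had 188 and 346 CPM in RNAi, against 262 and 532 CPM in wild type; all 4 lay below wild type in RNAi in each set, where 30.9% of tested genes did, and sls and up passed under the set term, where 3.65% of tested genes passed as lower. The caudal gene cad, a marker of the posterior midgut, had 45.2 and 84.0 CPM in RNAi, against 78.9 and 107 CPM in wild type (log2 fold change with the set term -0.58, edgeR adjusted p = 0.0308), the 1 of 5 regional markers that passed. The regional markers lab, Ptx1, GATAe and vnd were each lower in RNAi than in wild type in set 1, but higher in set 2. They had 15.1, 69.9, 164 and 268 CPM in RNAi 2, against 14.9, 61.6, 160 and 243 CPM in wild type 2. The summed 5 regional markers (lab, cad, Ptx1, GATAe and vnd) had 376 and 601 CPM in RNAi, against 529 and 586 CPM in wild type. The part of the muscle and regional markers in the NAAT1 result was not tested.

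The genes whose library pattern was most like that of NAAT1, by root mean square distance of centred log2 CPM over the 4 libraries among 6759 other genes that averaged 5 CPM or more, were CG9988 (0.079), CG12374 (0.12) and daw (0.23). CG12374, a gut zinc carboxypeptidase gene, had 8581 and 28414 CPM in RNAi, against 32354 and 65400 CPM in wild type. CG9988 had 2.31 and 9.09 CPM in RNAi, against 8.58 and 19.3 CPM in wild type. For daw, which encodes the activin-like ligand dawdle, the levels were 3.30 and 14.1 CPM in RNAi, against 10.0 and 19.7 CPM in wild type. In all 3, as in NAAT1, RNAi 1 was lowest and wild type 2 highest, which follows from choosing them by nearness to NAAT1. Among the 8 genes the nearest to NAAT1 was gb, at a distance of 0.61, and the farthest sbm, at 1.30.

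The SLC7 light chains were 4 of the 8: mnd, JhI-21, sbm and gb. The gene mnd (minidiscs) encodes a leucine transporter of the CD98 light chain type with which insulin-producing cells of the fly brain sense leucine. It lies on the plus strand of chromosome arm 3L at 14985100 to 14991667, encoding 499 residues. It had 4.26 and 2.98 CPM in RNAi, against 6.92 and 6.82 CPM in wild type, from 133 and 73 counts against 200 and 76 counts. Both RNAi libraries lay below both wild-type libraries, which were nearly equal. Genes with such a separation, lower in RNAi, made up 12.2% of tested genes.

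The mnd level in RNAi was 0.616 times wild type in set 1 (exact interval 0.491 to 0.771) while set 2 gave 0.436 times (0.312 to 0.610). The log2 fold change of mnd was -0.92 in both fits, with SE 0.39 and an edgeR adjusted p of 1.0 for genotype alone and SE 0.26 and an adjusted p of 0.0221 with the set term. With the set term mnd also passed in limma-voom (adjusted p = 0.0282) but not in DESeq2. With genotype alone its log2 fold change lay between -1.21 and -0.73 when each library was left out, and none of these passed.

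JhI-21, a further leucine carrier of the LAT1 type named as a juvenile hormone inducible gene, lies on the minus strand of 2L at 12051755 to 12056042. Its levels were 28.5 and 22.2 CPM in RNAi, against 36.6 and 25.2 CPM in wild type. The groups overlapped, since wild type 2 was below RNAi 1, and each RNAi library was below the wild-type library of its set. In set 1 the ratio of JhI-21 in RNAi to wild type was 0.778 (exact interval 0.711 to 0.851) while set 2 gave 0.881 (0.762 to 1.02). The log2 fold change of JhI-21 was -0.28 with the set term (SE 0.17, edgeR adjusted p = 0.419, 95% interval -0.62 to 0.063). Its exons share 295 bases with PLCXD on the other strand, a gene with at most 66 counts in any library.

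The most abundant of these light chains per kb was sbm (sobremesa), also of the LAT1 type and studied in glia of the fly brain. It lies on the minus strand of X at 14584733 to 14602580 and had 101 and 80.2 CPM in RNAi, against 57.6 and 73.6 CPM in wild type. Both RNAi libraries were above both wild-type libraries, as in 12.0% of tested genes, though RNAi 2 was close to wild type 2. The sbm level in RNAi was 1.75 times wild type in set 1 (exact interval 1.65 to 1.86) while set 2 gave 1.09 times (1.0 to 1.18). The log2 fold change of sbm was 0.47 with the set term (SE 0.18, edgeR adjusted p = 0.126) and 0.46 with genotype alone (SE 0.38, adjusted p = 1.0). It passed with the set term only where libraries were scaled by size alone (log2 fold change 0.57, edgeR adjusted p = 0.00915).

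The xCT-like gene gb (genderblind), known in flies as a glial cystine/glutamate exchanger that sets glutamate around neuromuscular synapses, lies on the minus strand of 3R at 27108467 to 27112270. Its levels were 2.53 and 5.38 CPM in RNAi, against 5.02 and 6.28 CPM in wild type, from 79 and 132 counts against 145 and 70 counts. RNAi 1 stood below the other 3 libraries. In set 1 the gb level in RNAi was 0.505 times wild type (exact interval 0.379 to 0.668), and in set 2 it was 0.857 times (0.636 to 1.16), an interval that includes equal levels. The log2 fold change of gb with the set term was -0.61 (SE 0.28, edgeR adjusted p = 0.227). Its exons share 865 bases with asRNA:CR45209 on the other strand, which had 10 counts or fewer in each library.

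Together the 4 light chains had 42.8 and 35.0 CPM per kb in RNAi, against 36.2 and 36.3 CPM per kb in wild type. The heavy chain gene CD98hc had 42.1 and 50.5 CPM per kb in RNAi, against 42.5 and 44.9 CPM per kb in wild type (log2 fold change with the set term 0.076, SE 0.17, edgeR adjusted p = 0.892). The sum of these 4 was thus 1.02 and 0.694 times the heavy chain in RNAi, against 0.851 and 0.809 times in wild type. Of the sum of these 4, sbm made up 65.8% and 64.0% in RNAi, against 44.5% and 56.7% in wild type. Other SLC7 genes were left out of the sum, so the ratios and shares hold for these 4 only. Among those left out, CG1607 had 3.20 and 10.5 CPM per kb in RNAi, against 5.16 and 10.7 CPM per kb in wild type.

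Neither of the most abundant pair, slif and path, passed in either fit. The gene slif (slimfast) encodes a cationic amino acid transporter through which the larval fat body senses amino acid supply, and lies on the plus strand of 3L at 22881045 to 22893821. It had 136 and 194 CPM in RNAi, against 193 and 182 CPM in wild type. RNAi 1 alone stood apart, below the other 3 libraries, which lay close together. For slif the level in RNAi was 0.704 times wild type in set 1 (exact interval 0.677 to 0.733) while set 2 gave 1.07 times (1.01 to 1.12), on either side of equal levels. The log2 fold change of slif with the set term was -0.21 (SE 0.19, edgeR adjusted p = 0.645, 95% interval -0.58 to 0.17).

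The gene path (pathetic), a proton-assisted SLC36 carrier that acts with TOR in growth and is needed for large dendrites, lies on the minus strand of 3L at 9494555 to 9505328. It had 150 and 244 CPM in RNAi, against 130 and 176 CPM in wild type. Each RNAi library was above the wild-type library of its set, and each set 2 library was above the set 1 library of its genotype. The path level in RNAi was 1.16 times wild type in set 1 (exact interval 1.11 to 1.21) while set 2 gave 1.38 times (1.31 to 1.46). It had 4694 and 5976 counts in RNAi, against 3757 and 1963 counts in wild type. The log2 fold change of path with the set term was 0.34 (SE 0.18, edgeR adjusted p = 0.329, 95% interval -0.024 to 0.70).

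The peptide carrier gene yin, which encodes a protein that moves bacterial muramyl dipeptide as well as short peptides, lies on the minus strand of X at 3862966 to 3871939 and encodes the longest protein of the 8, of 780 residues. It had 3.37 and 5.67 CPM in RNAi, against 4.43 and 4.76 CPM in wild type. The RNAi libraries were the lowest and the highest, with the wild-type libraries between them. The ratio of yin in RNAi to wild type was 0.760 in set 1 (exact interval 0.581 to 0.991) while set 2 gave 1.19 (0.862 to 1.67). Its log2 fold change was -0.025 with genotype alone (SE 0.42, edgeR adjusted p = 1.0) and -0.088 with the set term (SE 0.28, adjusted p = 0.931), with a 95% interval of -0.65 to 0.47 in the latter fit. The exons of yin share 242 bases with CG2930 on the other strand. CG2930 had 828 and 1869 CPM in RNAi, against 989 and 1512 CPM in wild type, and between 223 and 330 times the counts of yin in each library. The labels do not give the strand setting of the counting. The counts of yin could hold reads of CG2930, whose part was not tested. What CG2930 encodes is not given in the sources used here. It is not among the carriers listed below, and those lists need not be complete.

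Across the sets, the log2 ratio of RNAi to wild type was below 0 in both for NAAT1, mnd, gb and JhI-21, above 0 in both for path and sbm, and of opposite sign for slif and yin. Among tested genes 30.9% were below and 30.5% above in both sets. The 6 genes with 1 sign in both sets belong to the abundant and to the scarce class alike.

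**Figure D3:**
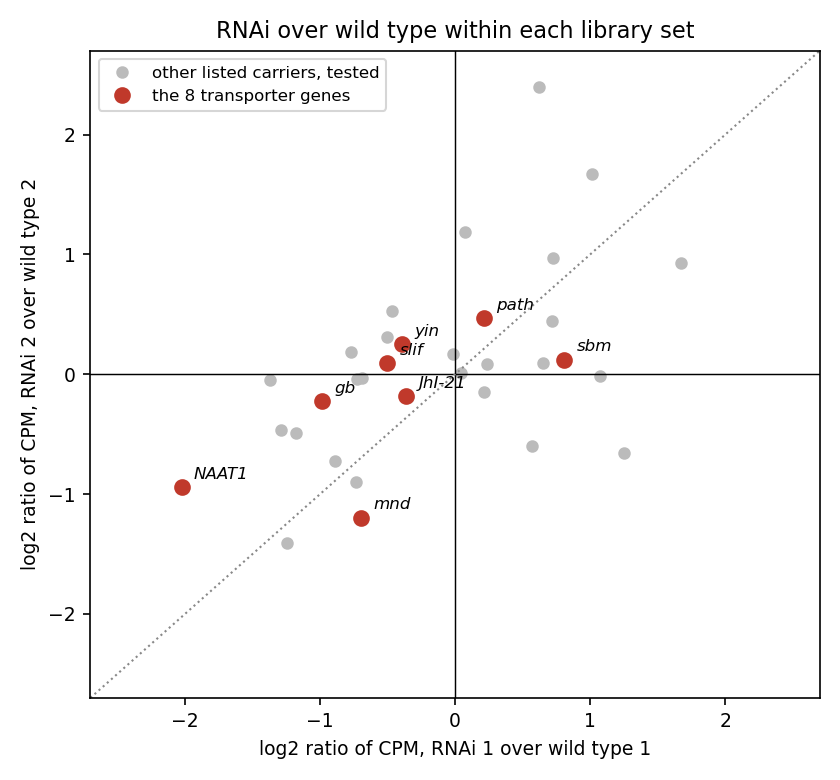
Log2 ratio of CPM, RNAi over wild type, in set 1 (horizontal) and set 2 (vertical) for the 8 genes (red) and the 26 other tested carriers (grey), with the line of equal ratios dotted. NAAT1 is at -2.03 and -0.94 and mnd at -0.70 and -1.20, in the lower left, and sbm at 0.81 and 0.12 and path at 0.21 and 0.47 in the upper right.

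A wider list of 34 other amino acid and peptide carriers was set beside the 8, and 26 of them had enough counts to be tested. With genotype alone 0 of the 26 passed in edgeR, DESeq2 or limma-voom. At an unadjusted p under 0.05 in edgeR 1 was higher and 1 lower, against 3.83% of tested genes in either direction. Under the set term 2 were higher and 5 lower in edgeR, where 3.45% and 3.65% of tested genes were called in these directions. With that term DESeq2 called 6 and limma-voom 7, against 4.29% and 7.79% of tested genes. The median log2 fold change of the 26 with the set term was 0.030. Genes that passed were found in each of the 4 lists that make it up (SLC7, SLC36 with SLC38, SLC6 and the remaining carriers), and the directions were mixed.

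The SLC6 list held nutrient amino acid and orphan transporters. Of its 10 tested genes 3 were lower with the set term, NAAT1 among them, and 1 was higher. CG1698, with DmNAT5 among its synonyms, had 38.8 and 39.9 CPM in RNAi, against 91.9 and 106 CPM in wild type. The libraries of each genotype lay close together and apart from those of the other. Genes separated in this direction, lower in RNAi, made up 12.2% of tested genes. CG1698 fell by 1.32 on the log2 scale (SE 0.17, edgeR adjusted p = 3.48e-07 with the set term and 0.626 with genotype alone). CG15279 (DmNAT6) had 7.24 and 8.56 CPM in RNAi, against 16.4 and 12.0 CPM in wild type (log2 fold change with the set term -0.85, edgeR adjusted p = 0.00584). With the set term it also passed in limma-voom (adjusted p = 0.00285) but not in DESeq2. The gene that was higher, blot (bloated tubules), had 5.80 and 12.6 CPM in RNAi, against 2.87 and 3.95 CPM in wild type (log2 fold change with the set term 1.32, edgeR adjusted p = 3.78e-04).

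In the SLC7 family 2 of 10 tested genes were lower with the set term, mnd and CG5535, and 1 was higher, CG7255. CG5535 had 25.3 and 18.4 CPM in RNAi, against 46.9 and 30.3 CPM in wild type (log2 fold change with the set term -0.81, edgeR adjusted p = 9.40e-04). CG7255 had 24.6 and 74.2 CPM in RNAi, against 14.9 and 37.8 CPM in wild type (log2 fold change with the set term 0.85, edgeR adjusted p = 5.70e-04). Both are, like slif, of the cationic amino acid transporter type. With genotype alone and without RNAi 2, the log2 fold change of CG7255 was -0.14.

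Of 9 tested SLC36 and SLC38 genes, CG8785 was lower with the set term and none was higher. It had 154 and 389 CPM in RNAi, against 374 and 538 CPM in wild type (log2 fold change with the set term -0.88, edgeR adjusted p = 0.00466). As with NAAT1, RNAi 1 was lowest and wild type 2 highest. The SLC36 gene acs, named after its values were seen, had 90.2 and 77.2 CPM in RNAi, against 58.5 and 14.6 CPM in wild type. Both RNAi libraries were above both wild-type libraries, as in 12.0% of tested genes. The log2 fold change of acs with the set term was 1.45 (SE 0.76, edgeR adjusted p = 0.615). It passed with that term where libraries were scaled by size alone (1.54, edgeR adjusted p = 4.34e-17). Eaat1, a glutamate transporter of the SLC1 family that glia use in the brain, had 44.9 and 66.3 CPM in RNAi, against 74.8 and 124 CPM in wild type (log2 fold change with the set term -0.82, edgeR adjusted p = 8.29e-04) and was the 1 of 5 remaining carriers that passed.

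**Figure D4:**
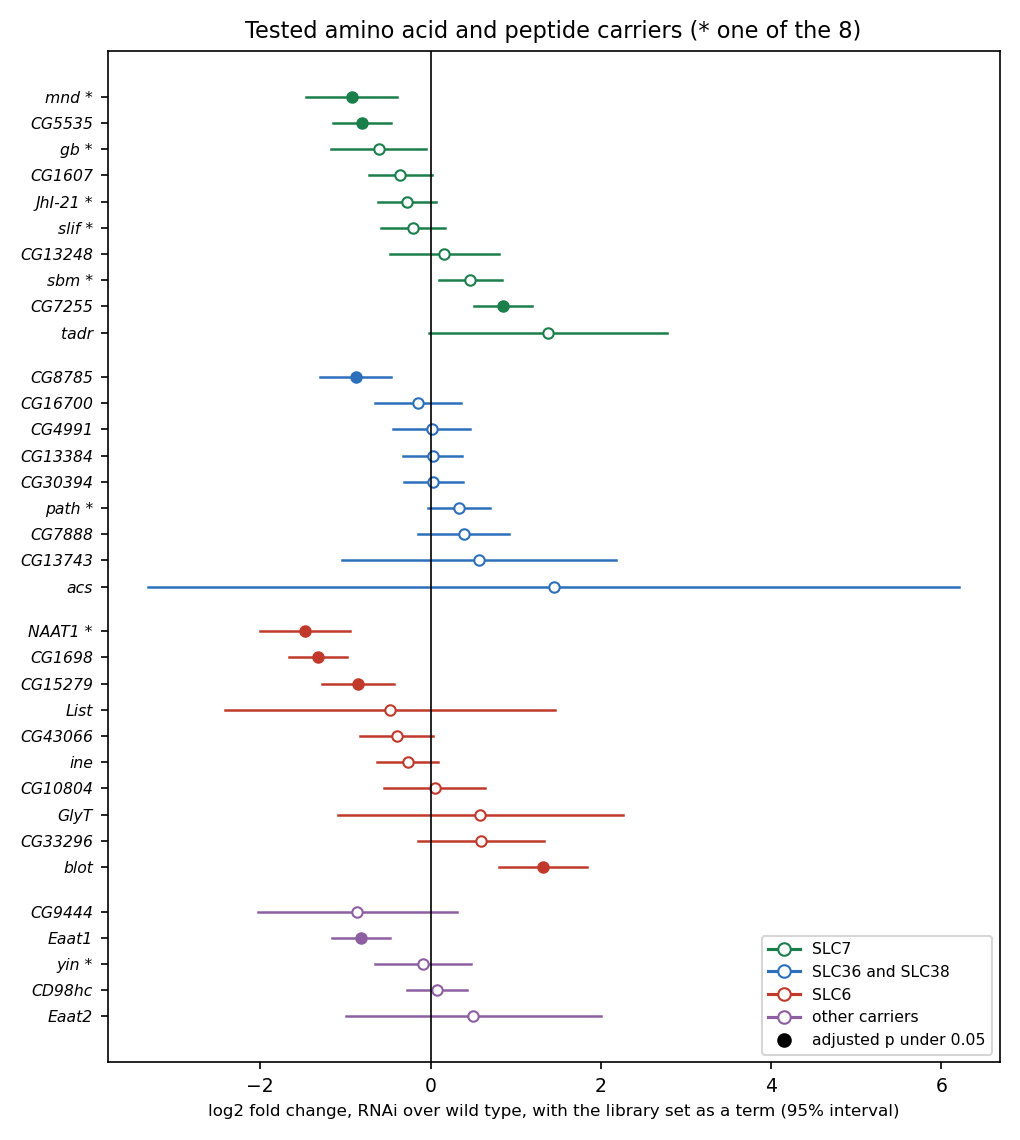
Log2 fold change, RNAi over wild type, with the library set as a term and 95% intervals, for the 34 tested carriers of the lists used here. Genes are grouped and coloured by family. A star marks the 8 genes and filled points passed an adjusted p of 0.05. Filled points are on the left for NAAT1, mnd and 5 other carriers and on the right for CG7255 and blot.

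Genes that sense or respond to amino acid supply did not pass in edgeR with TMM scaling. Of 18 tested TORC1 and amino acid sensing genes none passed in edgeR in either fit. At an unadjusted p under 0.05 there were 0 with genotype alone, against 3.83% of tested genes. With the set term there was 1 (Thor), against 17.7% of tested genes. DESeq2 and limma-voom called 0 of the 18 with or without the set term. Thor, the translation repressor 4E-BP, had 549 and 712 CPM in RNAi, against 897 and 955 CPM in wild type (log2 fold change with the set term -0.57, SE 0.20, edgeR adjusted p = 0.0835). The TOR target kinase gene S6k had 208 and 263 CPM in RNAi, against 260 and 234 CPM in wild type. Of 9 tested genes of the GCN2 and ATF4 response to amino acid shortage, none passed in edgeR with TMM in either fit. With the set term and libraries scaled by size alone, aay (log2 fold change 0.62, edgeR adjusted p = 0.00282) and PEK (0.57, adjusted p = 0.00882) passed, and with RLE factors aay did (0.52, adjusted p = 0.0478). Without adjustment 0 had an edgeR p under 0.05 with genotype alone, against 3.83% of tested genes. Under the set term 3 had, against 17.7% of tested genes. With that term limma-voom called 2 (aay and trbl, named, like PEK, after their values were seen) and DESeq2 0. The shares of tested genes called there were 7.79% and 4.29%. With genotype alone limma-voom and DESeq2 called 0 each. The ATF4 gene crc had 169 and 203 CPM in RNAi, against 197 and 220 CPM in wild type, and the initiation factor gene eIF2alpha 81.2 and 58.8 CPM in RNAi, against 104 and 57.0 CPM in wild type.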

How the data were processed

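The authors deposited raw read counts per gene from standard Illumina libraries (per the labels' protocols), in 1 column per library. FastQC, STAR and BDGP6 are named in the submitters' processing notes; versions, counter, strand setting and annotation are not given in the sources used here. Symbols, positions and exon lengths came from an Ensembl annotation of BDGP6.

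The counts went into edgeR 4.0.16 under R 4.3.3: filterByExpr left 9637 of 17510 genes, libraries (11294882 to 30537063 counts) were scaled by TMM, and robust quasi-likelihood fits compared 2 RNAi with 2 wild-type libraries, with Benjamini-Hochberg adjustment over all tested genes and calls under 0.05. A prior count of 2 went into log2 CPM. The scripts were tested on simulated data. Alternatives were each library left out, other factors (RLE, upper-quartile), library size alone, a filter at a mean of 5 CPM or none, thinning to the smallest total, DESeq2 1.42.0, limma-voom (limma 3.58.1) and a library set term; set term fits with library size alone or RLE were chosen after seeing the data. Members, lists and sets were chosen with earlier results of these data known. Named are all members, of each list those called (with the set term, at most 4; with none called, the 2 most abundant) and the 3 genes nearest in pattern to the member with the largest change. Some further genes, among them CG1607 and several markers, were named after their values were seen. Of 101 list names, 2 were not analysed here.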

Additional observations from a re-analysis of the deposited data

How the results depend on the processing

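With genotype alone, 12 genes of all tested were called: 1 with a filter at a mean of 5 CPM and 1 with upper-quartile factors, 120 with no count filter, 92 with DESeq2 and between 58 and 120 with a library left out. The set term gave 684 in edgeR, 413 in DESeq2, 751 in limma-voom, 968 with library size alone and 753 with RLE factors. Of the 8 transporter genes 0 were called with genotype alone, and between 0 and 1 with a library left out; with the set term it was 2 in edgeR, 1 in DESeq2, 2 in limma-voom, 3 with library size alone and 2 with RLE factors. Of the other carriers 0 were called with genotype alone, also with any library left out (0 to 0), and with the set term 7 in edgeR, 6 in DESeq2, 7 in limma-voom, 8 with library size alone and 7 with RLE factors. The cause of these differences was not tested. With a library left out the log2 fold change of slif lay between -0.50 and 0.048 (without RNAi 1), that of path between -0.069 (without RNAi 2) and 0.67, and that of yin between -0.49 and 0.31. For yin it was 0.074 with library size alone, 0.048 without wild type 2, 0.14 after thinning and 0.011 with the set term and library size alone. NAAT1, mnd, JhI-21 and sbm kept their sign in the 17 alternatives and gb in 16, since gb and yin did not reach a mean of 5 CPM and have no value under that filter. Library size alone moved the median log2 fold change of all genes by 0.099. The labels give no replicate numbers to pair libraries by; the pairing in the set term is read from the counts. Counts of mnd, gb and yin were between 53 and 200 per library, which limits their precision.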
